A study of Mus musculus with 2 samples.

Results

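The centromere-side edge of a mouse autosome was taken as the first Mb of its assembled sequence, from 3 to 4 Mb of the chromosome coordinate, cut into 10 kb bins. The rule used position alone: it took 100 bins on each of the 19 autosomes, 1900 edge bins in all, out of 256460 bins that held a read in the series. The next 2 Mb of the same chromosomes, from 4 to 6 Mb, made up 3800 bins that served as the flank. Reads were counted by their 5 prime end, once per position and strand in each library.

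Mouse autosomes carry the centromere close to one end, next to the telomere. The centromere and the blocks of heterochromatin beside it consist of long arrays of satellite repeats, which genome assemblies leave as a gap, so that the assembled sequence starts at the border of the heterochromatin. That border holds satellite remnants, duplicated segments and transposon copies, and short reads from such sequence can align to several places. Pericentromeric heterochromatin is marked by histone H3 trimethylated at a lysine that KDM4A (JMJD2A), a histone demethylase, can demethylate. GPS2 belongs to the NCoR/SMRT complex, which represses transcription.

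KDM4A was immunoprecipitated from 3T3-L1 cells, a mouse preadipocyte line, with Abcam antibody ab47984 (spelled anti-KMD4A in the labels), and the DNA was sequenced on an Illumina GAII. The siCTL group was cells transfected with control siRNA and the siGPS2 group was cells transfected with siRNAs against GPS2. Both groups were also induced to differentiate, for a time that the labels do not give. Each group had 1 library, no input or control-antibody library was analysed here, and the levels of GPS2 and KDM4A were not analysed here.

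The siCTL library held 6559860 distinct reads and the siGPS2 library 4940261, a ratio of 0.753. Each deposited read carries a score from 0 to 42, taken here as mapping quality, which is low where a read matches several places about equally well. Reads of high mapping quality, 30 or more, made up 83.7% of siCTL and 83.3% of siGPS2 distinct reads. With 1 library per group no difference has a replicate check and no test across samples is given. All intervals are 95% intervals that cover counting error alone, and without molecular identifiers separate reads need not be separate molecules. Ratios between libraries are scaled to their distinct reads and compare these libraries rather than the treatments. Without an input library, reads gathered by antibody and reads gathered because sequence is repeated or present in extra copies cannot be told apart.

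Read density at the edges exceeded that of the flank in both libraries, and the excess lay in a small number of bins on a few chromosomes. The 1900 edge bins held 91280 siCTL reads (1.39% of the library) and 73488 siGPS2 reads (1.49%), and the flank bins held 103601 and 77960. Density per Mb at the edges was thus 1.76 times that of the flank in siCTL (95% exact conditional interval 1.75 to 1.78) and 1.89 times in siGPS2 (1.87 to 1.90). The typical edge bin had nearly the density of a flank bin. Among bins with a read, the median was 26 siCTL reads at the edges and 26 in the flank, and 20 and 19 siGPS2 reads. The middle range of bins, from the lower to the upper quartile, ran from 21 to 32 siCTL reads at both, and from 15 to 25 siGPS2 reads at the edges and 15 to 24 in the flank.

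The chromosomes differed by more than 10-fold. Chromosome 9 held 29357 siCTL and 25583 siGPS2 edge reads, 32.2% and 34.8% of all edge reads, against 4262 and 3109 in a flank of double the length. Its edge was 13.8 times as dense as its flank in siCTL (13.3 to 14.2) and 16.5 times in siGPS2 (15.9 to 17.1). Chromosome 11 came next with 10686 and 8581 edge reads, at 3.08 times (2.99 to 3.17) and 3.17 times (3.07 to 3.28) its flank. The intervals of the libraries overlapped on chromosome 11 and were separate on chromosome 9.

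Chromosome 5 followed at 1.81 times its flank in siCTL and 2.08 times in siGPS2, then chromosome 4 at 1.39 and 1.52 times and chromosome 12 at 1.24 and 1.36 times. At the other end, chromosome 7 had 0.860 times the density of its flank in siCTL (0.815 to 0.906) and 0.895 times in siGPS2 (0.843 to 0.951). Chromosome 19 had 0.885 and 0.901 times, and chromosome 2 had 0.929 times in siCTL and 0.991 times in siGPS2 (0.936 to 1.05), where the interval held 1. Over the 19 autosomes the interval lay above 1 on 12, below 1 on 3 and held 1 on 4 in siCTL, and these counts were 10, 2 and 7 in siGPS2. The median chromosome stood at 1.09 and 1.05 times its flank.

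Without chromosome 9 the pooled edges were 1.25 times (1.23 to 1.26) and 1.28 times (1.27 to 1.29) as dense as the flank. Without chromosomes 9 and 11 they were 1.11 and 1.13 times as dense.

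Little of the pooled excess was carried by reads that align well to 1 place. Counting reads of high mapping quality alone, the pooled edges had 1.01 times the density of the flank in siCTL (1.002 to 1.03) and 1.04 times in siGPS2 (1.02 to 1.05). Counting the remaining reads, of low mapping quality, they had 4.99 times (4.91 to 5.07) and 5.51 times (5.41 to 5.61). Chromosome 11 supplied the pooled excess of high-quality reads, since without it the edges fell to 0.888 times (0.877 to 0.900) and 0.902 times (0.889 to 0.915) the flank.

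By chromosome, high-quality density ran from 0.636 to 2.53 times the flank in siCTL and from 0.631 to 2.61 times in siGPS2. Chromosome 16 was lowest and chromosome 11 highest in both libraries. The interval lay below 1 on 8 chromosomes in siCTL and 10 in siGPS2, and above 1 on 2 and 3. Chromosome 8 was above its flank at high quality in both libraries, at 1.11 times (1.07 to 1.17) and 1.22 times (1.15 to 1.28), without a dense bin. On chromosome 9 the high-quality ratio was 0.998 in siCTL and 1.09 in siGPS2, beside 13.8 and 16.5 for all reads.

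**Figure D1:**
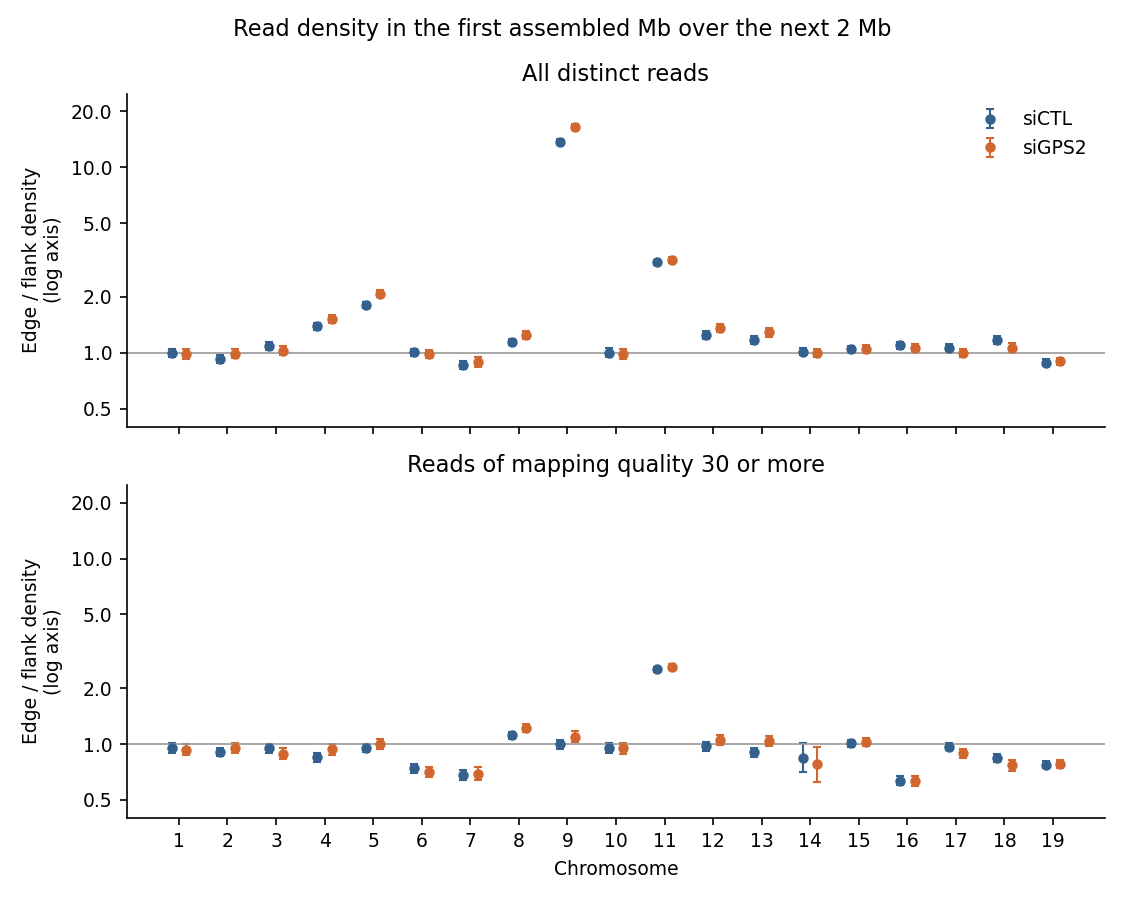
Read density in the first assembled Mb over that in the next 2 Mb (log axis) for each autosome and library, for all distinct reads (top) and reads of mapping quality 30 or more (bottom), with bars for 95% counting intervals. Chromosome 9 stands at 13.8 and 16.5 with all reads and near 1 with high-quality reads, while chromosome 11 stands above 2.5 in both panels.

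The share of high-quality reads was lower at the edge than in the flank on all 19 autosomes in both libraries. Pooled, 46.7% of siCTL edge reads (95% Wilson interval 46.4 to 47.0%) and 44.6% of siGPS2 edge reads (44.2 to 44.9%) were of high quality, against 81.2% and 81.0% in the flank. The intervals of edge and flank were separate on 16 chromosomes in siCTL and 15 in siGPS2. The median chromosome had 69.6% and 67.8% at the edge and 84.7% and 84.0% in the flank. Without chromosome 9 the pooled edge share was 66.0% and 65.5%.

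Chromosome 9 had 5.90% and 5.27% high-quality reads at its edge and 81.4% and 79.4% in its flank. Chromosome 14 was equally low at its edge, 5.54% and 5.04%, but also in its flank, 6.66% and 6.49%, so there the low share did not mark the edge, and its all-read density was 1.01 and 0.999 times the flank. Chromosome 16 had 52.9% and 54.3% against 91.4% and 91.2%. Chromosome 2 kept the highest share at its edge, 87.6% and 85.9%. Reads of score 0 made up 18.4% and 19.5% of edge reads and 0.823% and 1.01% of flank reads.

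**Figure D2:**
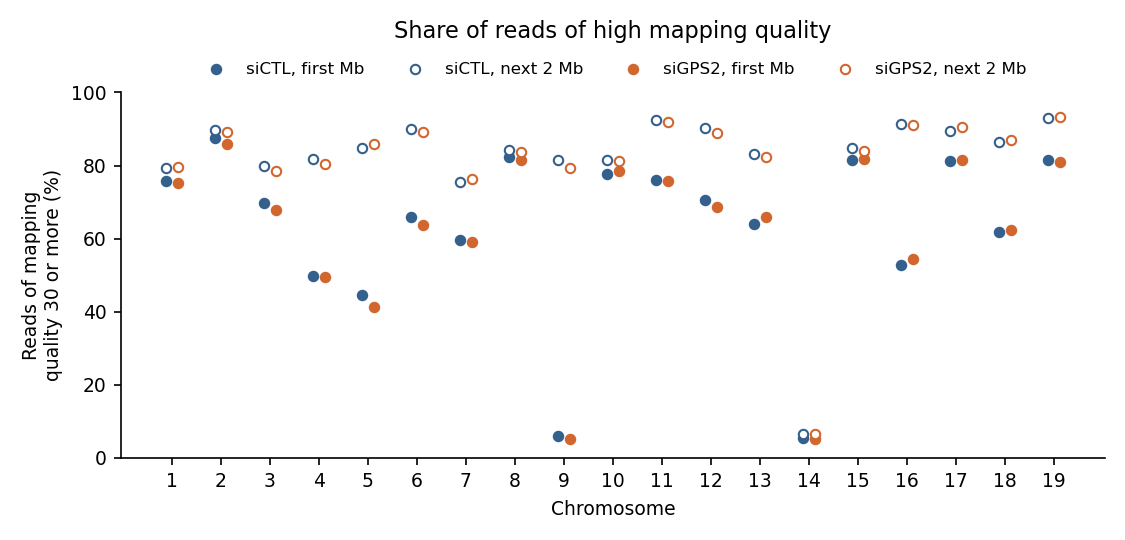
Share of distinct reads with mapping quality 30 or more (percent, y axis) in the first assembled Mb (filled) and the next 2 Mb (open) of each autosome, for siCTL and siGPS2. Filled points lie below open points on every autosome, and chromosome 14 is low in both regions.

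Dense bins were defined as bins with at least 5 times the median of non-empty flank bins (26 siCTL and 19 siGPS2 reads) in both libraries. Of the 1900 edge bins 24 were dense (1.26%), beside 1 of the 3800 flank bins (0.0263%) and 0.108% of all bins with a read on the autosomes and X. The 24 bins held 43.3% of siCTL and 46.4% of siGPS2 edge reads. With them left out, the other 1876 edge bins had 1.01 times (1.001 to 1.02) and 1.02 times (1.01 to 1.04) the flank density.

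With a limit of 10 times the median, 17 edge bins remained dense. Some bins lay close to the limit of 5 times. Just inside were a bin of chromosome 16 (3110001 to 3120000) at 5.62 and 6.89 times the median and the first bin of chromosome 4 at 6.58 and 7.42 times. Just outside were a bin of chromosome 18 (3010001 to 3020000) at 4.73 and 5.11 times and a bin of chromosome 14 (3690001 to 3700000) at 5.38 and 4.37 times.

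Dense bins crowded towards the centromere. Of the 24, 18 lay in the first 100 kb, 4 in the next 100 kb, 1 in the third and 1 in the fourth, and none farther in. The 18 include 8 adjacent bins of chromosome 11 and 4 adjacent bins of chromosome 9, so they are not 18 separate places. In the first 100 kb, density over the flank of the same chromosome ranged from 0.498 to 128 in siCTL and from 0.496 to 155 in siGPS2, with 7 chromosomes above 1.5 in each library. The median chromosome there stood at 1.13 in both. High-quality reads went the other way: their median over chromosomes was 0.644 and 0.604 times the flank in the first 100 kb, 0.757 and 0.804 in the second and 0.941 and 0.921 in the third.

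Joined where adjacent, the dense bins formed 12 stretches on 10 chromosomes. On chromosomes 4, 5, 9, 11 and 18 a stretch began at the first assembled bin. In 11 of the 12, less than 50% of reads were of high quality in both libraries. A second stretch of chromosome 11 was the exception.

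The stretch of chromosome 9, at 3000001 to 3040000 (mm8), was the densest. It held 27184 siCTL and 23935 siGPS2 distinct reads, 29.8% and 32.6% of all edge reads, at 261 and 315 times the flank median. Its 4 bins were the 4 densest edge bins, from 906 to 1099 RPM (reads per 1000000 distinct reads of the library) in siCTL and from 1054 to 1294 RPM in siGPS2. Almost none of these reads were of high quality: 205 in siCTL (0.754%) and 211 in siGPS2 (0.882%). Score 0 was carried by 49.6% and 48.3% of them and score 1 by 42.1% and 43.5%, and the stretch took 17.1% and 16.9% of all reads of score 0 in the libraries.

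In 1 kb steps the stretch was a plateau with an abrupt end. The first 38 kb held from 560 to 975 siCTL reads per kb (median 706) and from 464 to 918 siGPS2 reads (median 628.5), with the highest value in the first kb and the lowest in the same kb, 8 kb in, in both. The libraries rose and fell together along it (Pearson's r = 0.974 across 38 steps of 1 kb, a description of neighbouring steps that share sequence). The step at 38 kb held 302 and 256 reads and the step at 39 kb only 3 and 4. The block ended at 3038350 in siCTL and 3038400 in siGPS2, read in 50 bp windows.

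**Figure D3:**
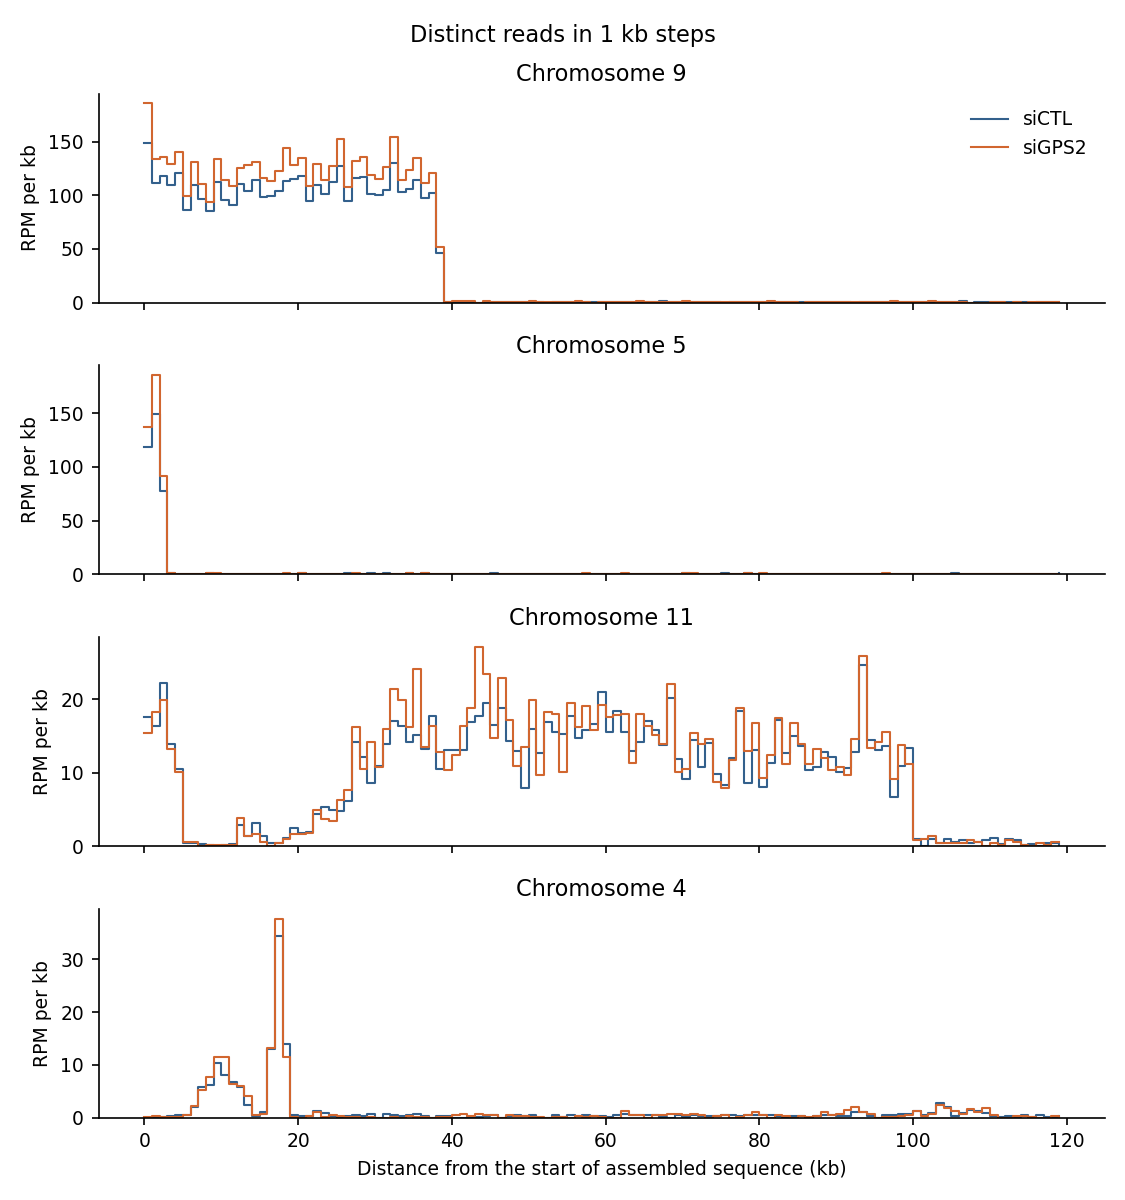
Distinct reads in RPM per kb (y axis) along the first 120 kb of assembled sequence (x axis, kb) on chromosomes 9, 5, 11 and 4, with siCTL in blue and siGPS2 in orange and a separate y scale for each panel. The blocks of chromosomes 9 and 5 end within 1 kb at the same place in both libraries, and the broad block of chromosome 11 ends at 100 kb.

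Reads on the plus strand outnumbered those on the minus strand there, at 55.4% of siCTL reads (54.8 to 56.0%) and 55.3% of siGPS2 reads (54.7 to 56.0%). In the flank the plus strand held 50.04% and 50.07%. Of the positions the stretch offers on both strands, 34.0% were occupied in siCTL and 29.9% in siGPS2, and 57.0% of the occupied siGPS2 positions were also occupied in siCTL. Before repeats of a position were removed it held 31256 and 26734 reads, so 13.0% and 10.5% of them were repeats. These 4072 and 2799 repeats were 45.4% and 41.0% of all repeats left in the deposited libraries. Counting each position once removed them, and with them a larger share of the siCTL than of the siGPS2 reads. Of lags from 20 to 1000 bp between read starts, the autocorrelation was highest at the shortest, 20 bp (0.115), and whether a weaker regular spacing lies at longer lags was not tested.

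Chromosome 5 had a short block of the same kind in its first bin (3000001 to 3010000), with 2290 siCTL and 2066 siGPS2 reads at 88.1 and 109 times the flank median. Its first 3 kb held 776, 982 and 508 siCTL reads and 677, 916 and 452 siGPS2 reads, and the next kb held 8 and 4. Only 5.76% and 5.71% of the reads were of high quality, and 17.7% and 14.3% of the deposited reads repeated a position.

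Chromosome 11 held the exception among the stretches, from 3020001 to 3100000, with 6874 siCTL and 5593 siGPS2 reads at 33.0 and 36.8 times the flank median. Here 73.9% and 73.7% of reads were of high quality, 5083 and 4122 reads, and only 3.23% and 2.99% had score 0. Repeats of a position numbered 3 in each library, and the strands were nearly even, at 49.3% and 48.9% plus. Between 30 and 100 kb from the start the profile varied from 44 to 162 siCTL reads per kb (median 90.5) and from 39 to 134 siGPS2 reads (median 72.5), with r = 0.809 across 70 steps. Its end was also abrupt in 1 kb steps, from 88 and 55 reads in the last kb before 100 kb to 6 and 4 in the next.

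The 5 densest bins composed mainly of high-quality reads were all in this stretch. The bin at 3040001 to 3050000 held 989 siCTL and 877 siGPS2 reads (151 and 178 RPM), the bin at 3050001 to 3060000 held 1065 and 818, and the bin at 3060001 to 3070000 held 1019 and 793. The bins starting at 3030001 and 3090001 held 932 and 797, and 856 and 682. A separate block in the first bin of chromosome 11, with 537 and 387 reads, had 6.70% and 4.65% high-quality reads and ended after 5 kb, where reads fell from 69 and 50 per kb to 3 and 3.

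The other stretches were smaller, at 5.62 to 17.8 times the flank median in siCTL and 6.89 to 18.4 times in siGPS2. On chromosome 4 the first 20 kb held 736 siCTL and 596 siGPS2 reads, and a narrow column at 17 kb reached 225 and 186 reads in 1 kb, between 86 and 65 in the kb before and 91 and 57 in the kb after. The first bin of chromosome 18 held 463 and 350 reads and a bin of chromosome 17 (3030001 to 3040000) held 350 and 260. Chromosome 12 had its stretch 100 kb in (3100001 to 3120000), with 391 and 374 reads that fell almost wholly within 2 kb, 202 and 199 in 1 kb and 146 and 138 in the next. Of all deposited reads in that stretch, 46.3% and 44.1% repeated a position, and 75.7% of the siGPS2 positions were also occupied in siCTL. The bins on chromosome 6 (3150001 to 3160000), chromosome 13 (3370001 to 3380000) and chromosome 16 (3110001 to 3120000 and 3260001 to 3270000) held from 146 to 204 siCTL reads and from 131 to 150 siGPS2 reads.

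Repeats of a position were far more frequent in edge bins than in the flank, but most lay in a few stretches. Edge bins held 4961 of the 8974 repeats in siCTL (55.3%) and 3477 of 6827 in siGPS2 (50.9%), beside 5 and 2 in the flank. The stretch of chromosome 9 held 4072 siCTL and 2799 siGPS2 repeats, that of chromosome 5 held 494 and 344, and that of chromosome 12 held 337 and 295.

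Some edge bins were empty. No read of either library fell in 16 edge bins, which lay in 4 runs of 4 bins: chromosome 7 from 3140001 to 3180000, chromosome 14 from 3350001 to 3390000 and from 3610001 to 3650000, and chromosome 16 from 3200001 to 3240000. Whether these are gaps of the assembly was not tested, since no mm8 genome was used here.

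Between the libraries, the edges held a slightly larger share of siGPS2 than of siCTL distinct reads, and the difference lay mainly in dense bins. Counting 1 read per position can lower the count of the deeper siCTL library more than that of siGPS2 where positions are crowded. Its part in these ratios was not tested. The siGPS2 over siCTL ratio was 1.07 over all edge bins (1.06 to 1.08) and 0.999 over the flank (0.990 to 1.01). It was 1.15 in the 24 dense bins (1.13 to 1.16) and 1.01 in all other edge bins (0.997 to 1.02), where the interval held 1. Without chromosome 9 the edge ratio was 1.03 (1.02 to 1.04), and the dense bins alone without it gave 1.10 (1.07 to 1.12). High-quality edge reads gave 1.02 (1.01 to 1.04), and low-quality edge reads gave 1.11 (1.10 to 1.13), beside 1.01 (0.985 to 1.03) for low-quality reads of the flank.

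By chromosome the edge ratio ran from 0.925 to 1.16 around a median of 1.04, and the flank ratio from 0.947 to 1.07 around 0.985. The interval lay above 1 at 6 edges, which were those of chromosomes 5 (1.10, 1.06 to 1.15), 8, 9 (1.16, 1.14 to 1.18), 11 (1.07, 1.04 to 1.10), 12 and 19. It lay below 1 at the edge of chromosome 18 (0.925, 0.876 to 0.978) and held 1 at 12. In the flank it lay above 1 on 3 chromosomes (16, 17 and 19), below on 2 (8 and 13) and held 1 on 14. On chromosome 19 the edge and the flank were thus both above 1, at 1.08 (1.02 to 1.13) and 1.06 (1.02 to 1.09). The flank of chromosome 11 had a ratio of 1.03 (0.998 to 1.07). With high-quality reads alone the edge interval lay above 1 on 3, below on 2 and held 1 on 14, and on chromosome 9 the edge ratio was then 1.03 (0.962 to 1.11).

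**Figure D4:**
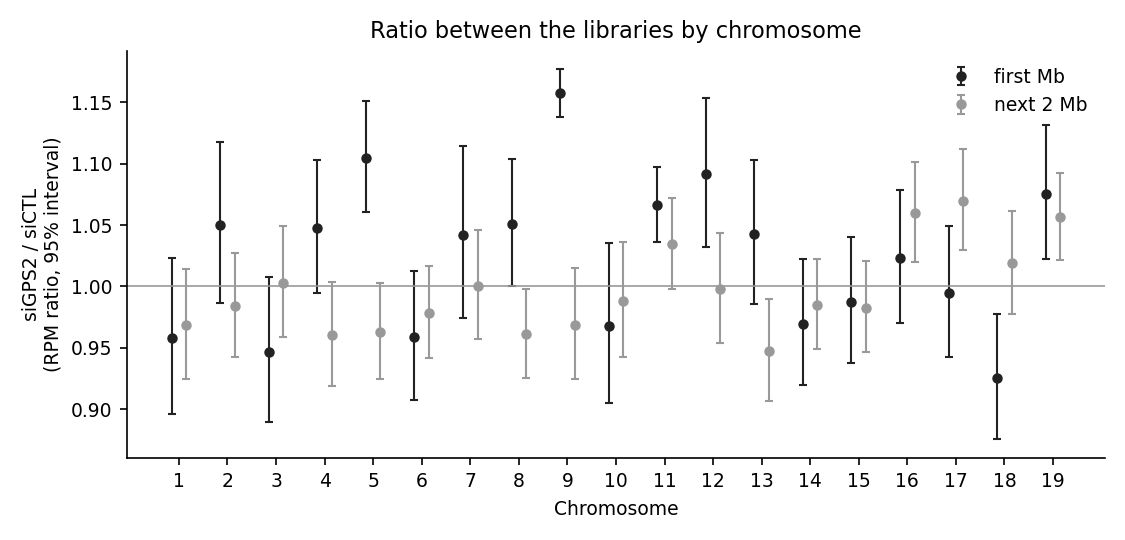
Ratio of siGPS2 to siCTL reads, each scaled to the distinct reads of its library (y axis), for the first assembled Mb (black) and the next 2 Mb (grey) of each autosome, with bars for 95% counting intervals. Edge ratios run from 0.925 on chromosome 18 to 1.16 on chromosome 9, and flank ratios from 0.947 to 1.07.

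Of the 12 stretches, the ratio interval lay above 1 in 4, below 1 in 0 and held 1 in 8. The 4 were those of chromosome 9 (1.17, 1.15 to 1.19), chromosome 5 (1.20, 1.13 to 1.27), the long stretch of chromosome 11 (1.08, 1.04 to 1.12) and chromosome 12 (1.27, 1.10 to 1.47). The chromosome 11 stretch gave 1.08 (1.03 to 1.12) with high-quality reads alone. On chromosome 9 the few high-quality reads gave 1.37 (1.12 to 1.66), and all deposited reads, repeats kept, gave 1.14 (1.12 to 1.15). The deposited siCTL and siGPS2 reads held only 8974 and 6827 repeats in all. Whether repeats were removed before deposit is not stated, so keeping those left need not lift the limit of 1 read per position.

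The share of reads on chromosome 9 fell with the flow-cell tile number. Whether this follows the place on the flow cell or a filter of reads in their order before deposit was not tested. Read names give the flow-cell tile, and 14 tiles held over 100000 reads of both libraries. The libraries were not spread alike over them: tile 1101 held 385057 siCTL and 322688 siGPS2 reads, and tile 1206 held 459302 and 286506. In the first of these tiles (1101) the chromosome 9 stretch took 1.88% of siCTL and 1.86% of siGPS2 reads, and in the last (1206) it took 0.200% and 0.245%. The share fell at each of the 13 steps in tile order, 9.43-fold in siCTL and 7.59-fold in siGPS2. The first bin of chromosome 5 fell 8.76-fold and 7.26-fold between the same tiles. The chromosome 11 stretch did not follow: it took 0.100% of siCTL reads in the first tile and 0.0993% in the last, and 0.118% and 0.100% of siGPS2 reads. The flank stayed between 1.53% and 1.60% of siCTL reads and between 1.53% and 1.61% of siGPS2 reads in every tile.

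The ratio of the libraries on chromosome 9 also moved with the tile. It was 0.987 in the first tile (0.954 to 1.02) and 1.23 in the last (1.11 to 1.35), with a median of 1.11, an interval above 1 in 10 tiles and below 1 in none. Over all edge bins the ratio was 1.001 in the first tile (0.974 to 1.03) and 1.06 in the last (1.02 to 1.11). With distinct reads of the 14 common tiles alone the ratio over all edge bins was 1.05 (1.04 to 1.06), beside 1.07 with all tiles. The stretch ratios given before count reads of all tiles, and no common-tile value of theirs is given here. The part of the tile in the edge densities was not tested.

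**Figure D5:**
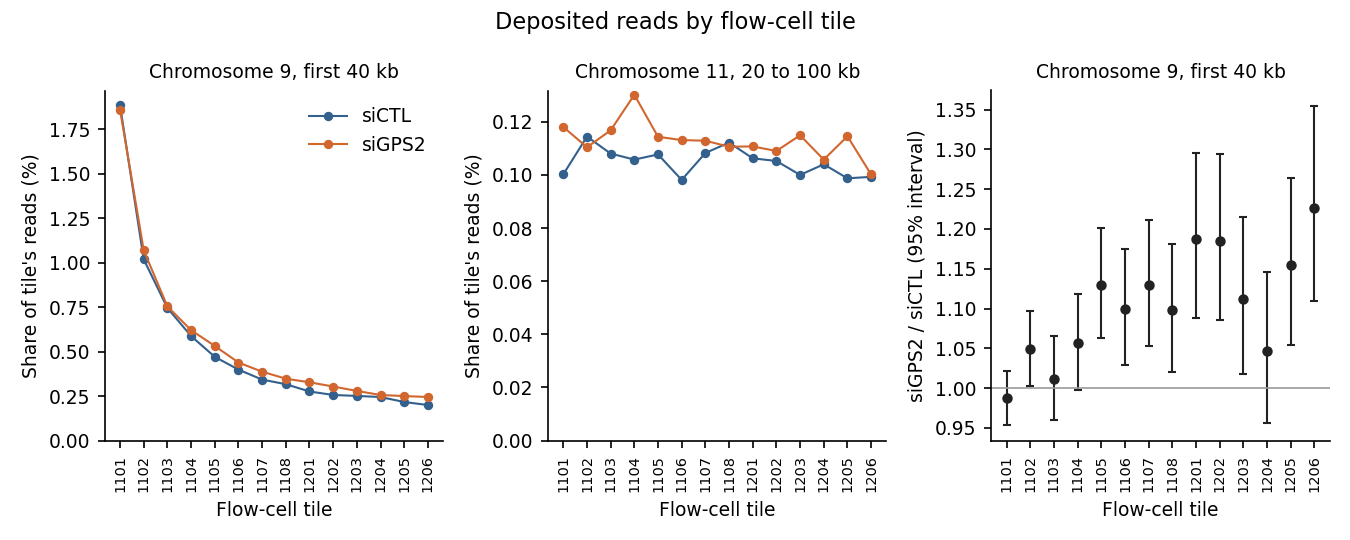
Share of each flow-cell tile's deposited reads (percent, y axis) that fell in the chromosome 9 stretch (left) and the chromosome 11 stretch (middle), and the siGPS2 to siCTL ratio of the chromosome 9 stretch with its 95% counting interval (right), over the 14 tiles held by both libraries (x axis). The chromosome 9 share falls from 1.88% to 0.200% in siCTL and from 1.86% to 0.245% in siGPS2, the chromosome 11 share stays near 0.1%, and the ratio runs from 0.987 to 1.23.

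Single edge bins past a fold between libraries were about as frequent as elsewhere in the genome. A bin was called when it had at least 30 reads over both libraries, a ratio at least 1.5-fold from 1 and an interval that excluded 1. Of 1742 edge bins with enough reads, 29 were lower in siGPS2 (1.66%, beside 1.87% of all such bins of the autosomes and X and 1.9% of flank bins). Higher in siGPS2 were 41 (2.35%, beside 1.99% of all bins and 2.32% of flank bins). None of the 24 dense bins was called, and the dense bins with the most reads differed by far less than the fold required.

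The called bins with the largest folds lay well below the limit for dense bins, at no more than 1.77 times the flank median in either library. Lowest was a bin of chromosome 7 (3890001 to 3900000) with 25 siCTL and 6 siGPS2 reads and a ratio of 0.319 (0.107 to 0.796). Next came bins of chromosome 18 (3020001 to 3030000, 37 and 9 reads), chromosome 1 (3710001 to 3720000, 31 and 8), chromosome 16 (3010001 to 3020000, 46 and 12) and again chromosome 18 (3650001 to 3660000, 30 and 8). These bins rest on at most 46 siCTL reads and 12 siGPS2 reads each.

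Highest was a bin of chromosome 3 (3630001 to 3640000) with 11 siCTL and 22 siGPS2 reads and a ratio of 2.66 (1.23 to 6.07), with a bin of chromosome 13 (3260001 to 3270000, 14 and 28 reads) at 2.66 (1.35 to 5.46). Bins of chromosome 6 (3910001 to 3920000, 16 and 31 reads), chromosome 2 (3010001 to 3020000, 12 and 22) and chromosome 17 (3720001 to 3730000, 11 and 20) followed, at 2.57, 2.43 and 2.41.

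The deposited peaks, each 2000 bp wide, were several times as frequent at the edges as in the flank. Of 1657 siCTL peaks 97 (5.85%) had their centre in an edge bin, and of 1349 siGPS2 peaks 79 did (5.86%). That was 5.11 peaks per Mb in siCTL and 4.16 in siGPS2, against 1.03 and 0.684 per Mb in the flank. Among the first 100 peaks of each list, 21 and 22 were edge peaks. Edge peaks lay on 16 autosomes in each list, with none on chromosomes 7, 10 and 15 and the most on chromosome 14 in siCTL (13) and on chromosomes 14 and 16 in siGPS2 (10 each).

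Counted singly, most edge peaks were found in both lists, though of the 75 merged edge peaks given below 33 were. An overlap of at least 1 bp with a siGPS2 peak was found for 68 siCTL edge peaks (70.1%), and with a siCTL peak for 62 siGPS2 edge peaks (78.5%). In the flank these were 10 of 39 (25.6%) and 11 of 26 (42.3%), and over the whole lists 51.5% and 61.2%. In the upper part (829 siCTL and 675 siGPS2 peaks) of each list the edge shares were 86.2% and 86.4%, and the flank shares rested on few peaks, 6 of 11 and 6 of 8. Many edge peaks were neighbours within a block: 61 siCTL and 48 siGPS2 edge peaks overlapped another peak of their own list, and 35 and 32 in the upper part of the lists. The first 20 kb held 27 and 29 of the edge peaks, and dense bins held 35 in each list.

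Peaks and dense stretches did not always coincide. Of the 12 stretches 10 held peaks of both lists. The densest, on chromosome 9, held 0 peaks of either list in its 40 kb, and the long stretch of chromosome 11 held 1 siCTL peak and 0 siGPS2 peaks. The settings of the peak caller were not given in the sources used.

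Joined across the lists, the edge peaks gave 75 merged peaks, of which 33 came from both lists, 27 from siCTL alone and 15 from siGPS2 alone. Most were of low mapping quality: 17 of the 75 had at least 50% high-quality reads, and the 10 merged peaks with the most reads had a median of 7.67% and at most 38.1%. The largest, on chromosome 5 (2999898 to 3003537), held 2270 siCTL and 2047 siGPS2 reads, with a ratio of 1.20 (1.13 to 1.27). The next, on chromosome 11 (2999488 to 3004993), held 528 and 379 reads at 0.953 (0.833 to 1.09), and the third, on chromosome 4 (3015909 to 3018754), held 403 and 308 at 1.01. The peak of chromosome 12 (3108929 to 3110930), with 348 and 337 reads, had a ratio of 1.29, with an interval that excluded 1. The others of the 10, on chromosomes 4, 6, 13, 16, 17 and 18, held from 155 to 331 siCTL reads and from 121 to 251 siGPS2 reads, at ratios from 0.964 to 1.25. Of these, the interval excluded 1 for the peak of chromosome 4 at 3007892 to 3011184, with 172 and 162 reads (1.25, 1.003 to 1.56).

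Of the 75 merged edge peaks 41 had at least 30 reads, and by the fold rule used for bins 3 of these were lower in siGPS2 and 0 higher, beside 1.5% lower and 2.76% higher over all merged peaks of the lists. With so few peaks these counts give no firm share. The 3, named after their values were seen, were on chromosome 14 (3668302 to 3671162, 45 siCTL and 16 siGPS2 reads, 0.472), chromosome 3 (3016770 to 3018948, 31 and 11 reads, 0.471) and chromosome 8 (3278456 to 3280659, 28 and 9 reads, 0.427, 0.177 to 0.930). The peak of chromosome 8 differed from most edge peaks in that 97.3% of its reads were of high quality. No gene was assigned to any bin or peak, since no mm8 annotation was used here.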

How the data were processed

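Aligned reads and a peak list of each library were used. The submitters' processing notes name Bowtie, HOMER and the mouse build mm8 but no role or version, and no source used here states how reads were filtered. The deposited read files hold 1 measured value, a whole-number score from 0 to 42 that was taken as mapping quality. The lists deposited by the authors hold other values, the start and end of each peak, with no signal. Peak starts were taken to count from 0, and all coordinates are printed counting from 1 in mm8. Lines cut short (3 in siCTL, 6 in siGPS2) were left out, which left 6568834 and 4947088 reads, and repeats of a position and strand were dropped. Tile numbers were read from read names and taken as their order.

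Densities were compared with exact conditional (Clopper-Pearson) intervals and shares with Wilson intervals at 95% confidence, with Python 3.11.15, numpy 2.4.6, scipy 1.17.1 and pandas 2.3.3. The call rule and the spacing analysis were tested on simulated data. A depth of 26 and 19 reads in the median flank bin limits single bins to large folds. Named bins were the 10 densest, the 5 with the largest fold in each direction and the 5 densest of mostly high quality, with the 5 chromosomes highest and the 3 lowest in siCTL and the 10 merged peaks with the most reads. The bins, rules and limits were chosen with earlier results of these data known. The joining of bins into stretches, the values of single tiles and those without chromosomes 9 and 11 were added after seeing the data. The alternatives were other read classes, repeats kept, thinning of siCTL, other windows, limits, scalings, folds and minimums.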

Additional observations from a re-analysis of the deposited data

Results flagged for a closer look

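The first assembled Mb of chromosome X lay outside the autosomal rule, and its bins entered only the background shares over the autosomes and X. It held 4958 siCTL and 3671 siGPS2 distinct reads, a density 1.91 times (1.84 to 1.99) and 1.94 times (1.86 to 2.03) that of its next 2 Mb. It was singled out as signal in data outside the edge and flank bins compared. High-quality reads made up 6.33% and 6.05% of it, and their density was 0.258 and 0.246 times that of the flank. The siGPS2 over siCTL ratio was 0.983 (0.942 to 1.03).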

How the results depend on the processing

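No paired analysis was possible because each group had 1 library, and for the same reason no replicate could be left out. Pooled edge over flank density stayed above 1 under the alternatives listed next, but not with high-quality reads without chromosome 11 (0.888 and 0.902), and its size depended on the reads and windows counted. In siCTL and siGPS2 it was 1.01 and 1.04 with reads of mapping quality at least 30, 4.99 and 5.51 with reads below 30, 1.86 and 1.97 with every deposited read, 1.89 and 2.02 with a flank of 6 to 8 Mb, 2.52 and 2.74 with an edge of 3 to 3.5 Mb, 1.25 and 1.28 without chromosome 9, and 1.11 and 1.13 without chromosomes 9 and 11, the last chosen after seeing the data. The high-quality share of the edge was 34.7% and 32.3% from 3 to 3.5 Mb, 66.0% and 65.5% without chromosome 9, 49.6% and 47.6% with a limit of 10, 35.1% and 33.6% with a limit of 40, and 44.3% and 42.5% with every deposited read. That of a flank of 6 to 8 Mb was 78.5% and 78.1%. The edge ratio of the libraries had an interval that held 1 in the first common tile, also chosen after seeing the data, where it was 1.001, and without all 24 dense bins, where it was 1.01 (0.997 to 1.02). Without the 10 densest bins it was 1.01 (1.002 to 1.03). Bins lower in siGPS2 numbered 14 with high-quality and 3 with low-quality reads. Bins higher numbered 3 with low-quality reads and 15 at 2-fold. In both directions there were 0 with a minimum of 100 reads and 0 with bins of 100 kb. Dense edge bins numbered 10 with high-quality reads, 205 with low-quality reads, whose flank median was 3 reads, and 38 at 3 times the median. Among 126 ratios of 32 named bins and stretches, 104 kept their direction and their side of the threshold. Another 6, whose interval held 1 before and after, crossed 1. A further 14 kept the direction while their interval came to hold 1, and 2 whose interval had excluded 1 reversed. These 2 were chromosome 9, 3030001 to 3040000, with high-quality reads (0.984, 0.637 to 1.51) and chromosome 17, 3720001 to 3730000, with low-quality reads (0.885). The chromosome 17 bin held 11 siCTL and 20 siGPS2 reads, of which 8 and 18 were of high quality, so its reversal rests on few reads. The cause of these changes was not tested. Edge peaks, and those overlapped by the other list, stayed within 1.5 times their number in the upper part of each list, while flank peaks fell from 39 to 11 and from 26 to 8 and joined siCTL edge peaks from 61 to 35. On chromosome 9 the lag of highest autocorrelation was 20 bp, the shortest examined, in each library and on each strand.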
